A study of Mus musculus with 6 samples.

Results

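The genes described here are 29 markers of the layers of the cerebral cortex, out of 49315 genes with a row in the count tables. They were chosen by name as genes used to mark cortical layers, with earlier results of these data known. All 29 were found by gene symbol and passed the filter on low counts, as 29 of the 17185 genes tested. By the layer they are best known for, 6 were grouped as upper-layer, 3 as layer 4, 8 as layer 5, 9 as layer 6 and 3 as pan-excitatory markers. The 6 RNA-seq libraries were made from mouse cerebral cortex. The shFabp7 group (3 libraries) came from wild type mice given AAV-PHP.eB-Gfap-GFP-shFABP7, a virus whose short hairpin RNA targets Fabp7, a lipid carrier of astrocytes. The shScr group (3 libraries) came from wild type mice given AAV-PHP.eB-Gfap-GFP-shScr, the same vector with a scrambled hairpin. In both groups the virus was injected at 21 days of age, and lipopolysaccharide (LPS, a bacterial component that causes inflammation) at 1 mg/kg in 3 weekly doses from 4 months of age, with tissue taken 24 h after the last dose. All mice thus carried a virus and received LPS, and a Gfap promoter, active mainly in astrocytes, drove both hairpins, whereas the 29 markers are mainly genes of neurons.

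The cerebral cortex is a sheet of neurons stacked in layers that differ in their targets. Upper-layer excitatory neurons project mainly to other cortical areas, layer 4 neurons receive input from the thalamus, layer 5 neurons include those that project to the brainstem and spinal cord, and layer 6 neurons include those that project to the thalamus. Each population keeps its own set of transcription factors, channels and secreted proteins into adult life, so the level of such genes in a piece of tissue depends on which layers and regions it holds. Several of these markers are not exclusive: Bcl11b and Foxp2 are also expressed in striatal neurons, and Lamp5 also marks a class of cortical interneurons.

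Total counts ranged from 16914012 to 18991235 per library. Levels are given in CPM, the reads of a gene scaled to equal library size. Fabp7 stood at 5.56, 2.49 and 3.52 CPM in shFabp7 libraries 1 to 3, against 26.3, 15.2 and 15.8 CPM in shScr libraries 1 to 3, so the groups did not overlap. By Xist against Y-linked genes, shFabp7 library 1 and shScr libraries 1 and 2 were read as male, and the other 3 libraries as female. Of those read as female, shFabp7 library 2 held 13.2 CPM of Y-linked genes beside 748 CPM of Xist, against 1.90 CPM in shFabp7 library 3 and 1.49 CPM in shScr library 3. The source of its Y-linked reads was not tested, so its sex, which enters the fit with sex as a covariate, is uncertain. Markers of other brain regions were present in every library at unequal levels. The summed level of 9 thalamic and hypothalamic markers was 38.8 to 44.5 CPM in the shFabp7 libraries and 154, 63.6 and 48.8 CPM in shScr libraries 1 to 3. The summed level of 9 hippocampal neuron markers was 34.8 to 40.4 CPM in the shFabp7 libraries and 86.2, 49.2 and 137 CPM in shScr libraries 1 to 3. Striatal neuron markers (9 genes) summed to 662, 520 and 1675 CPM in shFabp7 libraries 1 to 3 and to 1398, 587 and 816 CPM in shScr libraries 1 to 3. Ependymal and choroid plexus markers (8 genes) summed to 15.4, 8.70 and 10.1 CPM in shFabp7 libraries 1 to 3 and to 18.3, 12.7 and 26.7 CPM in shScr libraries 1 to 3. In each library at most 1 thalamic and hypothalamic and 2 ependymal genes had no count, and every hippocampal and striatal gene had counts. ShScr library 1 thus stood apart in thalamic and hypothalamic genes, shScr library 3 in hippocampal genes, and shFabp7 library 3 with shScr library 1 in striatal genes.

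**Figure D1:**
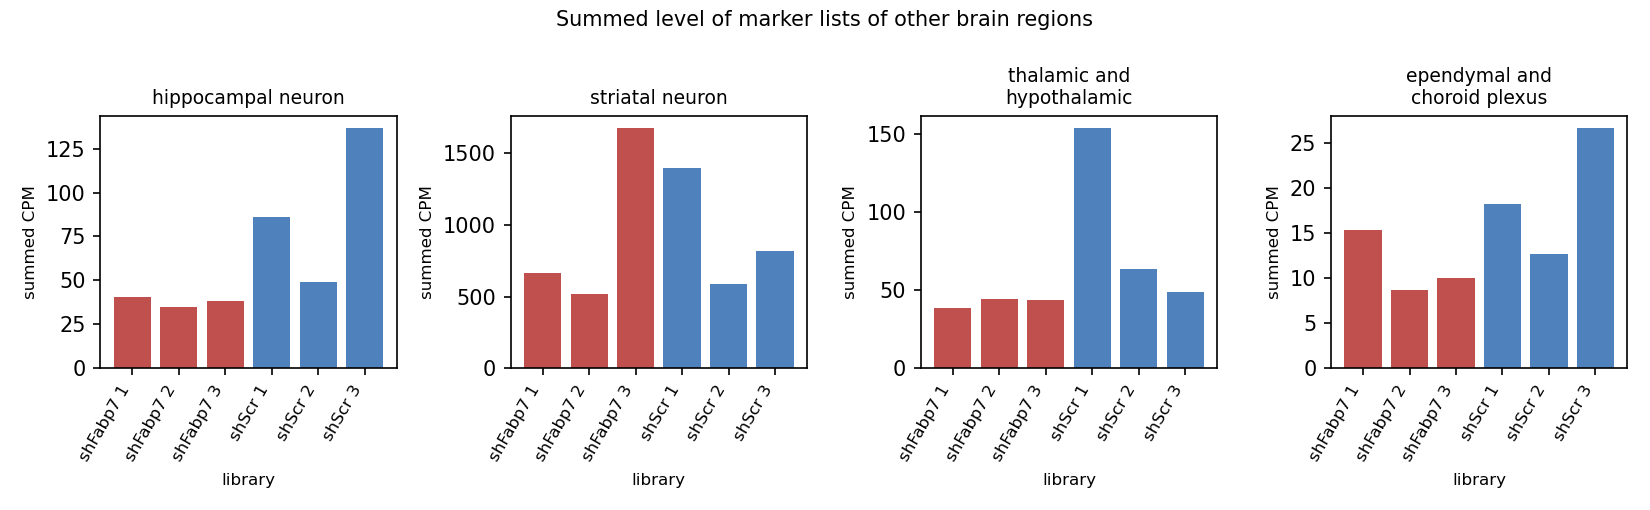
Summed CPM of marker lists of 4 other brain regions (vertical axes, from 0) in each library (horizontal axes; red, shFabp7; blue, shScr). Hippocampal markers reach 137 CPM in shScr library 3, striatal markers 1675 CPM in shFabp7 library 3, and thalamic and hypothalamic markers 154 CPM in shScr library 1.

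The comparison of the shFabp7 with the shScr libraries asked whether the layer markers differed under LPS between mice with and without the hairpin against Fabp7. Upper-layer and layer 4 markers had mostly higher values in the shFabp7 libraries, with median log2 fold changes (shFabp7 over shScr) of 0.42 and 0.57, layer 5 and layer 6 markers had medians of -0.21 and -0.06, and pan-excitatory markers had 0.24. None of these members passed the threshold of 0.05 in edgeR's quasi-likelihood test with Benjamini-Hochberg adjustment: 0 of 29 were called, where 0.116% of all genes tested were called, 0.0582% higher and 0.0582% lower. At an unadjusted p under 0.05 there were 7 of 29, where the share of all genes was 16.8%. DESeq2 called 4 of 29, all higher in shFabp7 (Cux2, Stard8, Rorb and Deptor), where it called 4.49% of all genes, 2.49% of all genes being higher. Fabp7, the target of the hairpin, had a log2 fold change of -2.31 and did not pass in edgeR either (adjusted p of 0.0704). It passed in DESeq2 (adjusted p of 5.23e-13). The lack of calls in edgeR thus does not show that the members were alike in both groups. The groups did not overlap for 7 members, 5 higher in shFabp7, where 11.4% of all genes tested were higher without overlap, and 2 lower, where 11.5% were lower. Over all 29 members the median was 0.16, with 18 above 0, and over all genes tested it was -0.01. Without shScr library 1 the median over the members was 0.018. In bulk tissue, fewer cells of a type and less RNA per cell cannot be told apart.

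**Figure D2:**
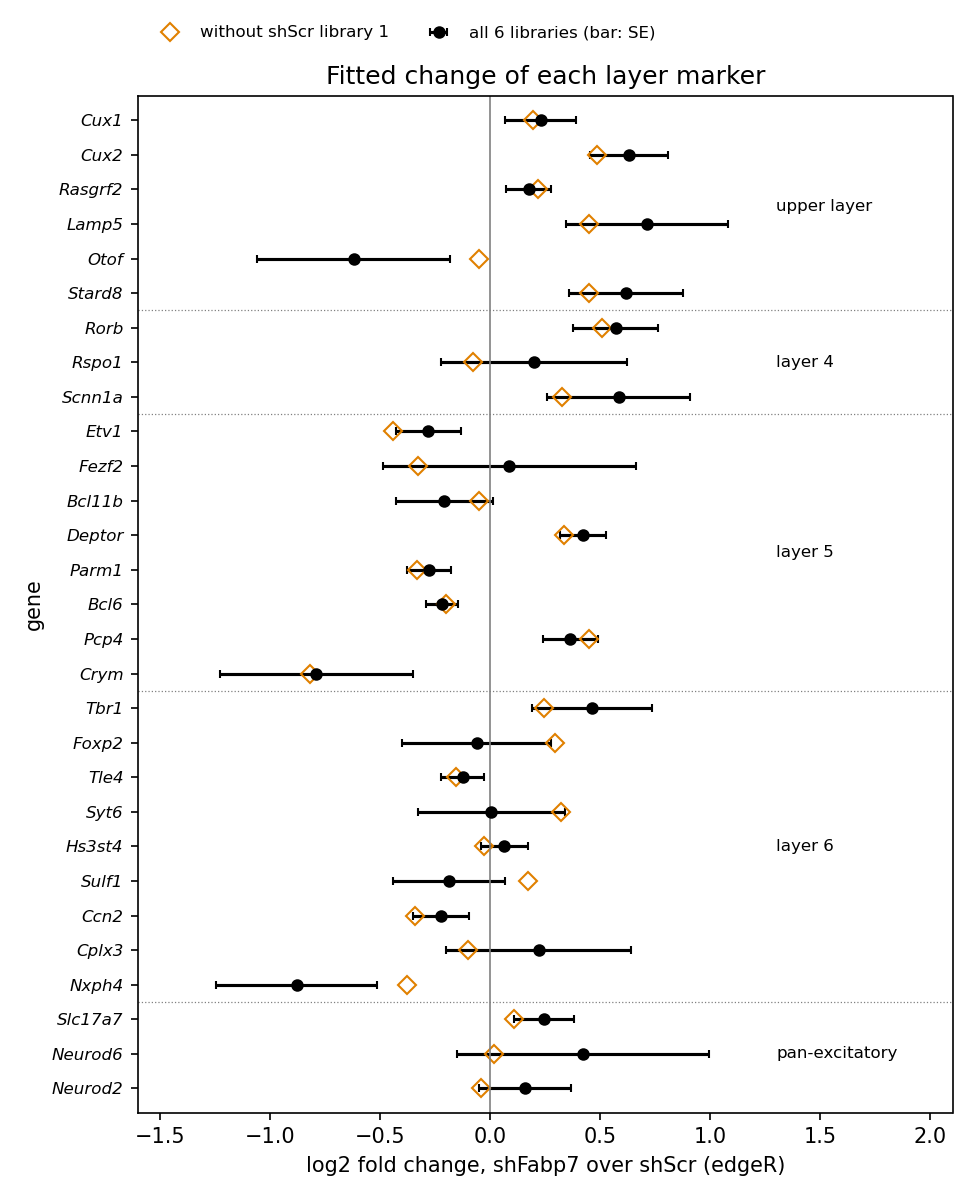
Fitted log2 fold change of each of the 29 markers (horizontal axis, shFabp7 over shScr; black points with SE bars, all 6 libraries; open orange diamonds, without shScr library 1), grouped by layer down the page. Of the upper-layer and layer 4 markers, Otof alone has a black point below 0, and the values of Neurod6 and Nxph4 move toward 0 without shScr library 1.

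Among the 6 upper-layer markers, 5 had log2 fold changes above 0 and 1, Otof, below. DESeq2 called 2 of these 6, both higher in shFabp7, where it called 2.49% of all genes higher. In edgeR 1 had an unadjusted p under 0.05, where the share of all genes was 16.8%. The upper-layer median of 0.42 was 0.33 without shScr library 1 and also 0.33 without shFabp7 library 2, which held both Xist and Y-linked reads, and 0.065 with the level of non-cortical markers (the 4 region lists) as a covariate. That level (mean log2 CPM) was 2.855, 2.35 and 2.99 in shFabp7 and 3.88, 2.95 and 3.59 in shScr libraries 1 to 3. Because it was mostly higher in shScr, fits with this covariate cannot separate the group from the level of these markers, here and for the members below. Cux2, a homeodomain transcription factor of upper-layer neurons, lies on chromosome 5 (121856366 to 122050102, minus strand, ENSMUSG00000042589; positions are those of the files, read as GRCm38). It stood at 151, 187 and 162 CPM in shFabp7 libraries 1 to 3, against 85.1, 134 and 104 CPM in shScr libraries 1 to 3. All 3 shFabp7 libraries lay above all 3 shScr libraries, with shScr library 1 the lowest. Its means were 167 ± 18.6 CPM in shFabp7 and 108 ± 24.8 CPM in shScr (SD, n = 3 each), with a fitted log2 fold change of 0.63 (SE 0.18). The adjusted p was 0.184 in edgeR and 0.00244 in DESeq2, and it ranged from 0.00244 to 0.851 over all settings tried. The DESeq2 call of Cux2 was also made without shScr library 1, at an adjusted p of 0.0118 and a log2 fold change of 0.49. Without shScr library 2 Cux2 passed in edgeR, at a log2 fold change of 0.82 and an adjusted p of 0.0148. With sex as a covariate the Cux2 value was 0.60, and with the level of non-cortical markers 0.22, and neither passed in edgeR.

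Stard8, which encodes a START-domain protein, is X-linked (chromosome X, 99003248 to 99074728, plus strand). It stood at 53.4, 58.0 and 51.1 CPM in shFabp7 libraries 1 to 3, against 26.6, 50.3 and 29.1 CPM in shScr libraries 1 to 3. The groups did not overlap but nearly touched: shScr library 2 lay close to the shFabp7 libraries and well above the other shScr libraries. The log2 fold change was 0.62 (SE 0.26), and the adjusted p was 0.310 in edgeR and 0.0403 in DESeq2, with a range of 0.00146 to 1.0 over all settings. Without shScr library 2 it was 0.96 and passed in edgeR, at the lowest p of that range. Without shScr library 1 it did not pass in DESeq2 (adjusted p of 0.650). The Stard8 value was 0.69 with sex and 0.093 with the level of non-cortical markers as a covariate.

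The stretches upstream of the starts of Cux2, Stard8 and Rorb (a layer 4 marker described next) are shown because these members were called higher by DESeq2. No entry was matched for Deptor, the fourth. RefSeq promoters (GRCm38.p6) were matched for 21 of the 29 members, with 29 starts. Each sequence below is the 250 bases before a RefSeq start, read on the strand of the gene. The stretches of Cux2 and Stard8 lie within the span that the files give for the gene, and that of Rorb just before it. Capitals mark the E-box CAGATG, which reads CATCTG on the other strand, and the E-box CAGCTG, its own reverse complement, both of which NeuroD-type factors such as the Neurod2 and Neurod6 members can bind.
Cux2, first start, chr5:122049852-122050101, minus strand: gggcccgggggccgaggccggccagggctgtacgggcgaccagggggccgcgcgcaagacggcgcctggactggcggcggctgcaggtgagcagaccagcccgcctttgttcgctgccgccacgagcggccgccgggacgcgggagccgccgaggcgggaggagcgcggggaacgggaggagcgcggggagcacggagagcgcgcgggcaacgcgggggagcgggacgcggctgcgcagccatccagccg
Cux2, second start, chr5:122047826-122048075, minus strand: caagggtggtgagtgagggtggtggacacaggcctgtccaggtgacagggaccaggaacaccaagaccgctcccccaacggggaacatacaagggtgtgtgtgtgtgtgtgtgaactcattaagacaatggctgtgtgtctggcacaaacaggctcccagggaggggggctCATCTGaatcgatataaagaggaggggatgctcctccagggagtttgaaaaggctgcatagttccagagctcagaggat
Stard8, chrX:99042331-99042580, plus strand: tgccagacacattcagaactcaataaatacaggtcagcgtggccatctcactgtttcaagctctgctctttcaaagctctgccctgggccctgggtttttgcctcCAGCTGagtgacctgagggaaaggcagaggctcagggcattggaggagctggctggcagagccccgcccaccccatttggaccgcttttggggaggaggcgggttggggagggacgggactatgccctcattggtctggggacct
Rorb, first start, chr19:19111197-19111446, minus strand: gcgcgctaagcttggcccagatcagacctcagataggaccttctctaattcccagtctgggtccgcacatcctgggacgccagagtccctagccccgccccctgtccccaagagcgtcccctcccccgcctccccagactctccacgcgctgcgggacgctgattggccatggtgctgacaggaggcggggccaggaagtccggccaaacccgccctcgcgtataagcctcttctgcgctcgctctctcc
A further start of Rorb, with no match, is not printed. The second start of Cux2 held 1 match to CAGATG and the Stard8 start 1 match to CAGCTG, on either strand. Of the 29 starts of members, 3 (10.3%) held CAGATG, against 14.4% of 32851 RefSeq starts of the same length. CAGCTG was held by 6 starts of only 4 members, with 3 of these starts from Syt6, in part overlapping, so this share is not set against that of all starts. These matches are a description of letters only.

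Lamp5, a lysosome-associated membrane protein of the brain, stood at 164, 207 and 165 CPM in shFabp7 libraries 1 to 3, against 65.0, 161 and 101 CPM in shScr libraries 1 to 3. Its groups did not overlap, but shScr library 2 lay close to shFabp7 libraries 1 and 3. The log2 fold change of 0.71 carried an SE of 0.37 and an adjusted p of 0.411 in edgeR. Leaving out shScr library 1 gave 0.45 for Lamp5, and leaving out shScr library 2 gave 1.11. It was 0.15 without shScr libraries 1 and 3 together, which left shScr library 2 alone in its group. With the level of non-cortical markers as a covariate the Lamp5 value was 0.0023. Rasgrf2, an activator of Ras and the upper-layer member with the highest CPM, stood at 215, 250.5 and 225 CPM in shFabp7 and at 215, 223 and 173 CPM in shScr libraries 1 to 3. These groups overlapped, and the log2 fold change was 0.17 (SE 0.10). Cux1, the homeodomain paralogue of Cux2, averaged 118.5 ± 21.9 CPM in shFabp7 and 101 ± 14.65 CPM in shScr (SD, n = 3 each). The log2 fold change of Cux1 was 0.23 (SE 0.16), and the difference between the paralogues was not tested. Otof, which encodes otoferlin, a calcium sensor of vesicle release known from the inner ear, ran against the other upper-layer members. It stood at 41.8, 38.9 and 44.1 CPM in shFabp7 and at 105, 37.6 and 48.7 CPM in shScr libraries 1 to 3, so its log2 fold change of -0.62 rested on shScr library 1 and was -0.05 without it. Otof was singled out after its values were seen.

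**Figure D3:**
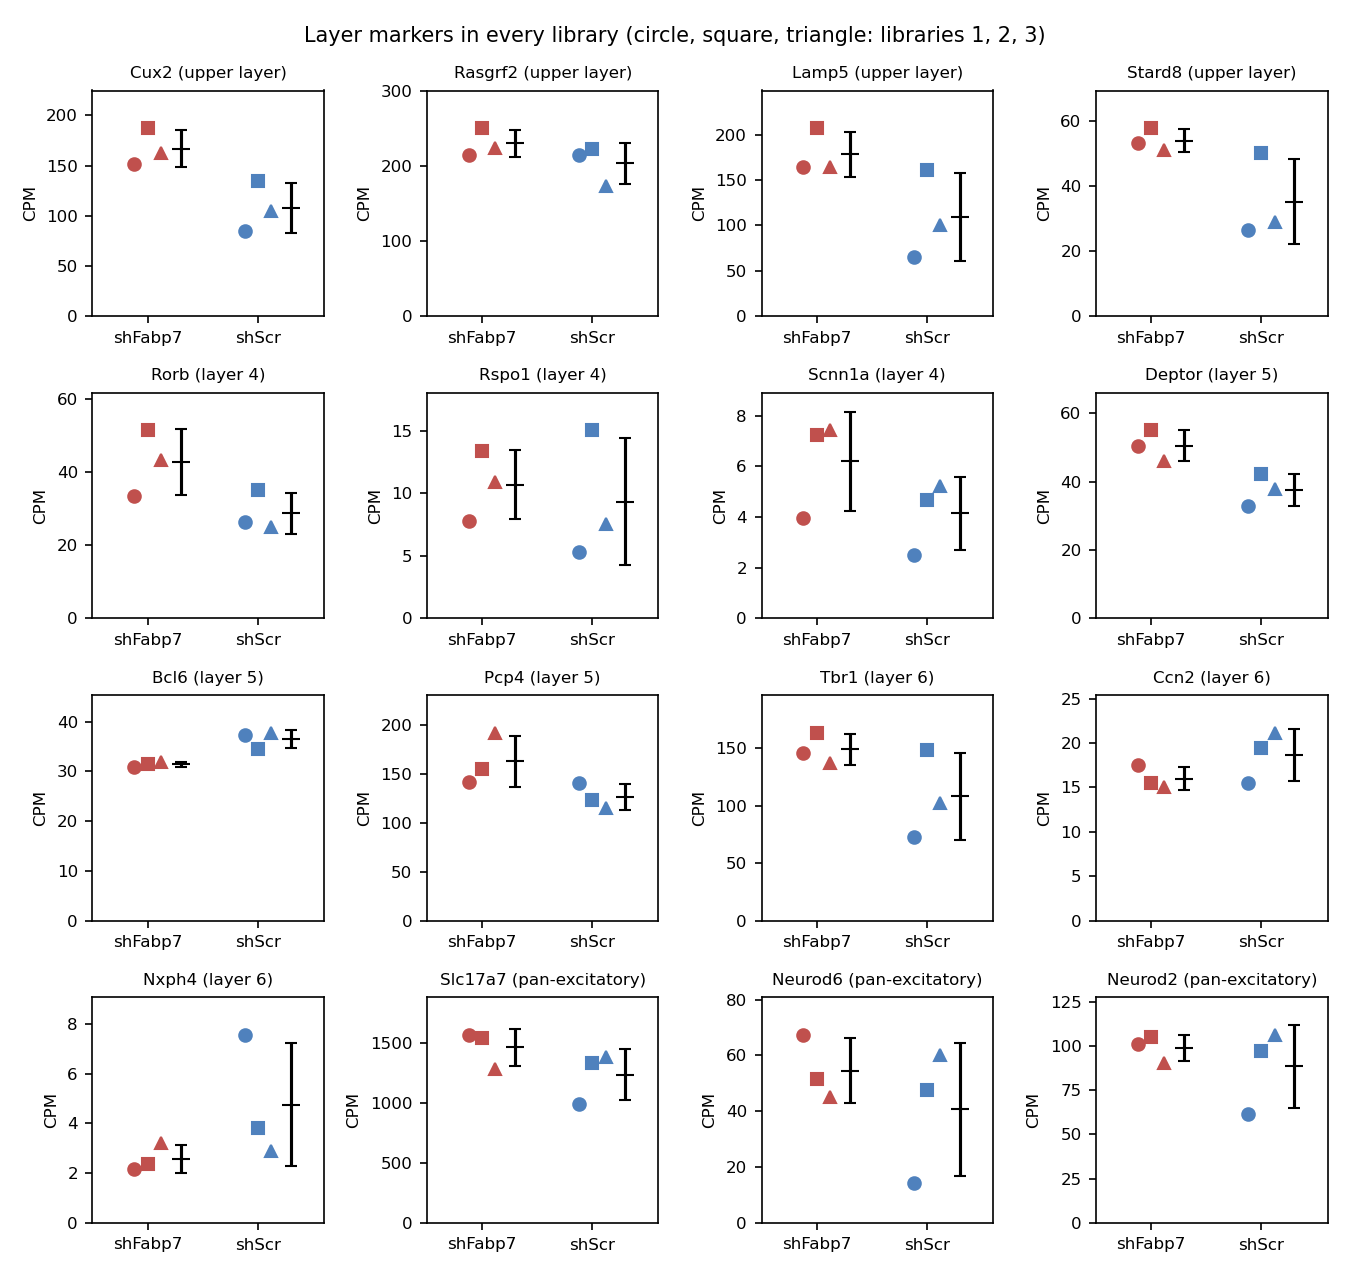
CPM of 16 markers (vertical axes, from 0) in each library of the shFabp7 group (red, left) and the shScr group (blue, right); circles, squares and triangles are libraries 1, 2 and 3, and black bars are the mean ± SD of 3 libraries. Cux2, Lamp5, Stard8, Deptor and Pcp4 are higher and Bcl6 lower in shFabp7 without overlap. ShScr library 1 is the lowest point for Cux2, Lamp5, Stard8, Rspo1, Scnn1a, Deptor, Tbr1, Slc17a7, Neurod6 and Neurod2.

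All 3 layer 4 markers had values above 0, and 1 passed in DESeq2, which called 2.49% of all genes higher. In edgeR 1 had an unadjusted p under 0.05, where the share of all genes was 16.8%. Rorb, a nuclear receptor that marks layer 4, lies on chromosome 19 (18930605 to 19111196, minus strand). It stood at 33.5, 51.45 and 43.3 CPM in shFabp7 libraries 1 to 3, against 26.3, 35.2 and 24.9 CPM in shScr libraries 1 to 3. The groups overlapped in 1 pair: shScr library 2 lay above shFabp7 library 1. The means were 42.8 ± 9.003 CPM and 28.8 ± 5.57 CPM in shFabp7 and shScr (SD, n = 3 each), and the log2 fold change of 0.57 carried an SE of 0.19. The adjusted p was 0.222 in edgeR and 0.0295 in DESeq2, with a range of 9.12e-06 to 1.0 over all settings. Without shScr library 1 Rorb did not pass in DESeq2 (adjusted p of 0.155), and with the level of non-cortical markers as a covariate its value was 0.18.

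Scnn1a, the alpha subunit of the epithelial sodium channel, was a marker of low level. It stood at 3.95, 7.24 and 7.42 CPM in shFabp7 and at 2.503, 4.68 and 5.24 CPM in shScr libraries 1 to 3, with a log2 fold change of 0.58 and an SE of 0.33. In both groups library 1 was the lowest. Rspo1, a secreted enhancer of Wnt signalling, stood at 7.83, 13.4 and 10.9 CPM in shFabp7 and at 5.33, 15.05 and 7.59 CPM in shScr libraries 1 to 3. Here shScr library 2 was the highest of all, and the log2 fold change of 0.20 carried an SE of 0.42 and turned to -0.08 without shScr library 1. The layer 4 median of 0.57 was 0.33 without shScr library 1, 0.32 with sex as a covariate, and 0.18 with the level of non-cortical markers as a covariate.

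Of the 8 layer 5 markers, 3 had log2 fold changes above and 5 below 0. DESeq2 called 1 of these 8, higher in shFabp7, where it called 2.49% of all genes higher. At an unadjusted p under 0.05 in edgeR there were 4 of 8, where the share of all genes was 16.8%. They went both ways: Deptor and Pcp4 were above 0, and Bcl6 and Parm1 below. Deptor, an inhibitor of the mTOR kinase and a marker of layer 5, lies on chromosome 15 (55112317 to 55259271, plus strand). It stood at 50.45, 55.0 and 45.9 CPM in shFabp7 libraries 1 to 3, against 32.8, 42.3 and 37.8 CPM in shScr libraries 1 to 3. The groups did not overlap, and the means were 50.4 ± 4.54 CPM and 37.6 ± 4.74 CPM in shFabp7 and shScr (SD, n = 3 each). The log2 fold change of 0.42 carried an SE of 0.10, and the adjusted p was 0.110 in edgeR, the lowest of the 29 members, and 0.0240 in DESeq2, with a range of 9.42e-05 to 1.0 over all settings. Without shScr library 1 Deptor did not pass in DESeq2 (adjusted p of 0.129), and without shScr library 2 it passed in edgeR at 0.0219. With the level of non-cortical markers as a covariate its value was 0.16. Of the exon length of Deptor, 3.41% overlaps Gm9920 on the opposite strand, whose counts came to 0.681% of those of Deptor.

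Pcp4, a calmodulin-binding peptide, stood at 141.4, 155 and 192 CPM in shFabp7 and at 141.2, 124 and 115 CPM in shScr libraries 1 to 3. The groups did not overlap by the narrowest of margins, between library 1 of each. The log2 fold change was 0.36 (SE 0.12), with an adjusted p of 0.217 in edgeR and 0.0682 in DESeq2. Pcp4 shares 37.9% of its exon length with Igsf5 on the same strand, whose counts came to 0.302% of those of Pcp4. Without shScr library 1 it was 0.45 and passed in DESeq2, at an adjusted p of 0.0217. Bcl6, a transcriptional repressor, showed the opposite order with little spread: 30.8, 31.4 and 32.0 CPM in shFabp7 and 37.4, 34.5 and 37.8 CPM in shScr libraries 1 to 3. The Bcl6 log2 fold change of -0.22 carried an SE of 0.07 and an adjusted p of 0.193 in edgeR. Parm1, a mucin-like membrane protein, also had groups that did not overlap, at 56.5 ± 5.22 CPM in shFabp7 and 68.5 ± 8.58 CPM in shScr (SD, n = 3 each), with a fitted log2 fold change of -0.28.

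Etv1, an ETS transcription factor of layer 5, averaged 49.4 ± 2.57 CPM in shFabp7 and 60.02 ± 12.5 CPM in shScr (SD, n = 3 each). Its log2 fold change of -0.28 did not pass with all libraries, and without shScr library 1 it was -0.44 and passed in edgeR (adjusted p of 0.0162, with a range of 0.00143 to 0.740 over all settings). Fezf2, a zinc finger factor that specifies neurons projecting below the cortex, stood at 35.7, 25.4 and 24.45 CPM in shFabp7 and at 8.98, 36.8 and 34.7 CPM in shScr libraries 1 to 3. ShScr library 1 lay far below every other library, and the log2 fold change of 0.09 became -0.33 without it. Crym, a thyroid hormone-binding protein, stood at 61.6, 30.7 and 39.3 CPM in shFabp7 and at 72.6, 46.0 and 109 CPM in shScr libraries 1 to 3. The Crym log2 fold change of -0.79 carried an SE of 0.44. With single libraries left out it ranged from -1.11 (without shFabp7 library 1) to -0.43 (without shScr library 3), and with the level of non-cortical markers as a covariate it was -0.06. Hippocampal markers were also highest in shScr library 3, and their part in the Crym value was not tested. Bcl11b, a zinc finger factor of layer 5 and of striatal neurons, stood at 88.8, 73.2 and 116 CPM in shFabp7 and at 129, 87.1 and 105 CPM in shScr libraries 1 to 3 (log2 fold change -0.21, SE 0.22). Fezf2, Crym and Bcl11b were singled out after their values were seen.

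The 9 layer 6 markers had 4 values above and 5 below 0, and none passed in edgeR or DESeq2. An unadjusted p under 0.05 in edgeR was reached by 1 of the 9, where the share of all genes was 16.8%. Tbr1, a T-box factor of layer 6, lies on chromosome 2 (61802930 to 61814114, plus strand). It stood at 146, 164 and 137 CPM in shFabp7 libraries 1 to 3, against 72.9, 149 and 103 CPM in shScr libraries 1 to 3. The groups overlapped, and the log2 fold change of 0.46 carried an SE of 0.27 and an adjusted p of 0.465 in edgeR. The Tbr1 value was 0.25 without shScr library 1, 0.77 without shScr library 2 and 0.0013 without shScr libraries 1 and 3 together. Nxph4, a neurexin ligand of deep-layer neurons, stood at 2.15, 2.37 and 3.20 CPM in shFabp7 and at 7.56, 3.83 and 2.89 CPM in shScr libraries 1 to 3. Its log2 fold change of -0.88 (SE 0.36, adjusted p of 0.277) was the lowest of the 29 members and was -0.38 without shScr library 1.

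Ccn2, a secreted matrix protein that marks the deepest sublayer, stood at 17.5, 15.5 and 15 CPM in shFabp7 and at 15.5, 19.5 and 21.2 CPM in shScr libraries 1 to 3. The groups overlapped through shScr library 1, and the log2 fold change was -0.22 (SE 0.13). Its exons share 23.2% of their length with Gm15270 on the opposite strand, whose counts came to 3.27% of those of Ccn2. Cplx3, a complexin of the same sublayer, averaged 13.8 ± 2.73 CPM in shFabp7 and 11.8 ± 6.19 CPM in shScr (SD, n = 3 each). Foxp2, a forkhead factor of layer 6 and of striatal neurons, Syt6, a synaptotagmin, and Sulf1, an extracellular sulfatase, all had their highest value in shScr library 1. Foxp2 stood at 15.7, 15.02 and 21.9 CPM in shFabp7 and at 26.3, 17.4 and 11.2 CPM in shScr libraries 1 to 3. Syt6 stood at 25.9, 22.6 and 36.5 CPM in shFabp7 and at 39.4, 27.0 and 18.45 CPM in shScr libraries 1 to 3. Foxp2, Syt6 and the layer 5 member Bcl11b were thus highest in shScr library 1 and next highest in shFabp7 library 3, and striatal markers summed to 1675 CPM in shFabp7 library 3 and 1398 CPM in shScr library 1, and the part of the striatal markers in these values was not tested. The log2 fold changes of Foxp2, Syt6 and Sulf1 were -0.06, 0.005 and -0.19, and those of Foxp2 and Sulf1 were 0.29 and 0.17 without shScr library 1. These 3 were singled out after their values were seen. Tle4, a corepressor, and Hs3st4, a heparan sulfate sulfotransferase, had means close to each other, at 44.7 ± 6.11 CPM and 53.4 ± 1.035 CPM in shFabp7 and 48.8 ± 1.87 CPM and 51.1 ± 8.485 CPM in shScr (SD, n = 3 each).

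The 3 pan-excitatory markers had log2 fold changes above 0, and none passed in edgeR, DESeq2 or at an unadjusted p under 0.05 in edgeR. Slc17a7, the vesicular glutamate transporter of cortical neurons (chromosome 7, 45163949 to 45176142, plus strand), stood at 1565, 1536 and 1283 CPM in shFabp7 and at 991, 1327 and 1383 CPM in shScr libraries 1 to 3. The Slc17a7 log2 fold change of 0.24 carried an SE of 0.14 and was 0.11 without shScr library 1. Neurod6, a basic helix-loop-helix factor of cortical excitatory neurons, stood at 67.4, 51.45 and 44.9 CPM in shFabp7 and at 14.3, 47.6 and 60.25 CPM in shScr libraries 1 to 3. Neurod2, a factor of the same family, stood at 101, 105 and 90.4 CPM in shFabp7 and at 61.8, 97.45 and 106 CPM in shScr libraries 1 to 3. For all 3 genes shScr library 1 was the lowest library and the other 5 libraries overlapped. The log2 fold changes of Neurod6 and Neurod2 were 0.42 (SE 0.57) and 0.16 (SE 0.21) with all libraries, and 0.02 and -0.04 without shScr library 1.

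**Figure D4:**
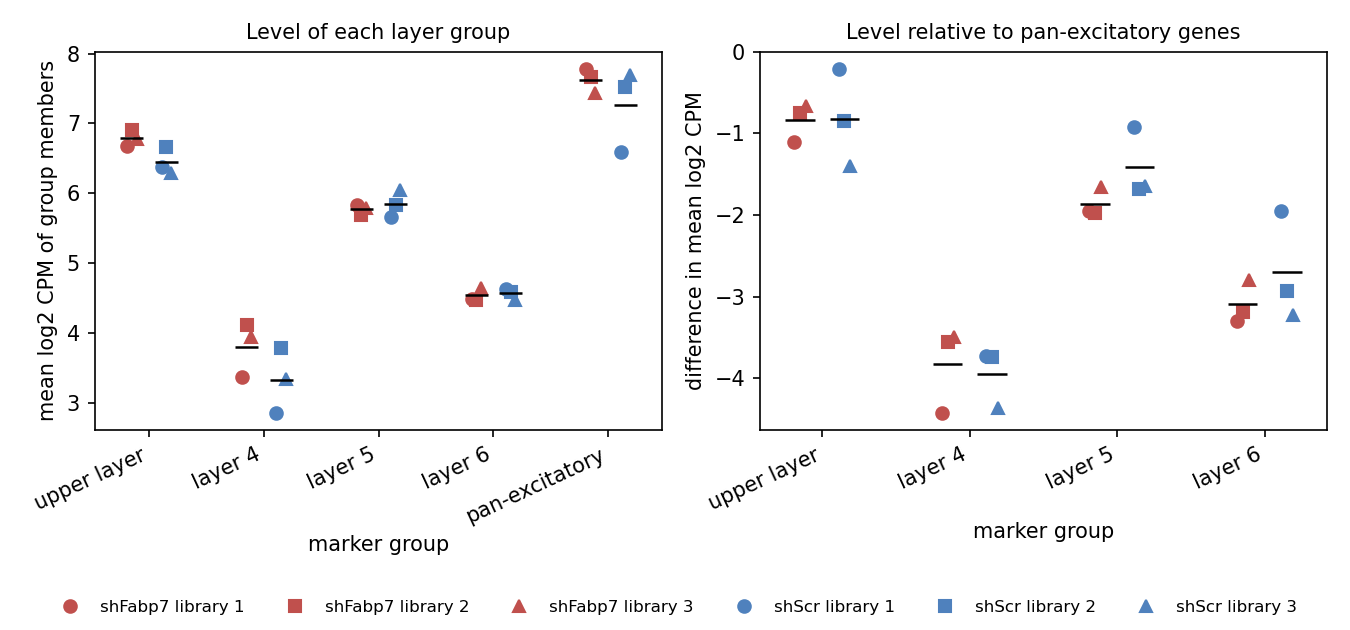
Left, mean log2 CPM of the members of each marker group (vertical axis) in each library (red, shFabp7; blue, shScr; black lines, means of 3 libraries); right, the same after subtracting the pan-excitatory mean of the library. On the left the upper-layer points of the 2 groups do not overlap, and the pan-excitatory point of shScr library 1 lies at 6.58; on the right the upper-layer points overlap, with shScr library 1 highest at -0.21.

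Set side by side on the scale of mean log2 CPM, the upper-layer group was the only one of the 5 whose libraries did not overlap between groups, at 6.67, 6.91 and 6.77 in shFabp7 and 6.37, 6.66 and 6.29 in shScr libraries 1 to 3. The difference of 0.34 was larger than the SD of 0.12 in shFabp7 and 0.19 in shScr, and it was 0.31 without shScr library 1. The gap between the nearest libraries was small, as shFabp7 library 1 and shScr library 2 lay at 6.67 and 6.66. Layer 4 markers differed by 0.48, with SDs of 0.39 in shFabp7 and 0.46 in shScr, and pan-excitatory markers by 0.36, with SDs of 0.17 and 0.60 in shFabp7 and shScr. Without shScr library 1 the layer 4 difference was 0.25 and the pan-excitatory difference 0.022. Layer 5 and layer 6 markers differed by -0.08 and -0.03, within the SD of either group for layer 6 and within the shScr SD of 0.19 for layer 5. These differences were -0.17 and 0.0067 without shScr library 1.

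Relative to the pan-excitatory markers of the same library, the upper-layer level was -0.84 ± 0.23 in shFabp7 and -0.82 ± 0.60 in shScr (mean log2 CPM difference, SD, n = 3 each). On this scale the upper-layer groups overlapped and differed by -0.02, and by 0.28 without shScr library 1. The layer 5 level was -1.86 ± 0.18 in shFabp7 and -1.42 ± 0.43 in shScr, and the layer 6 level -3.09 ± 0.27 in shFabp7 and -2.70 ± 0.67 in shScr. These differences of -0.44 and -0.39 were -0.19 and -0.02 without shScr library 1. In shScr library 1 the upper-layer, layer 5 and layer 6 levels were the highest of all 6 libraries, at -0.21, -0.92 and -1.95, and its pan-excitatory mean of 6.58 was the lowest. The relative levels of the shFabp7 and shScr groups thus depended on that library, and no test was made over a group of members.

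**Figure D5:**
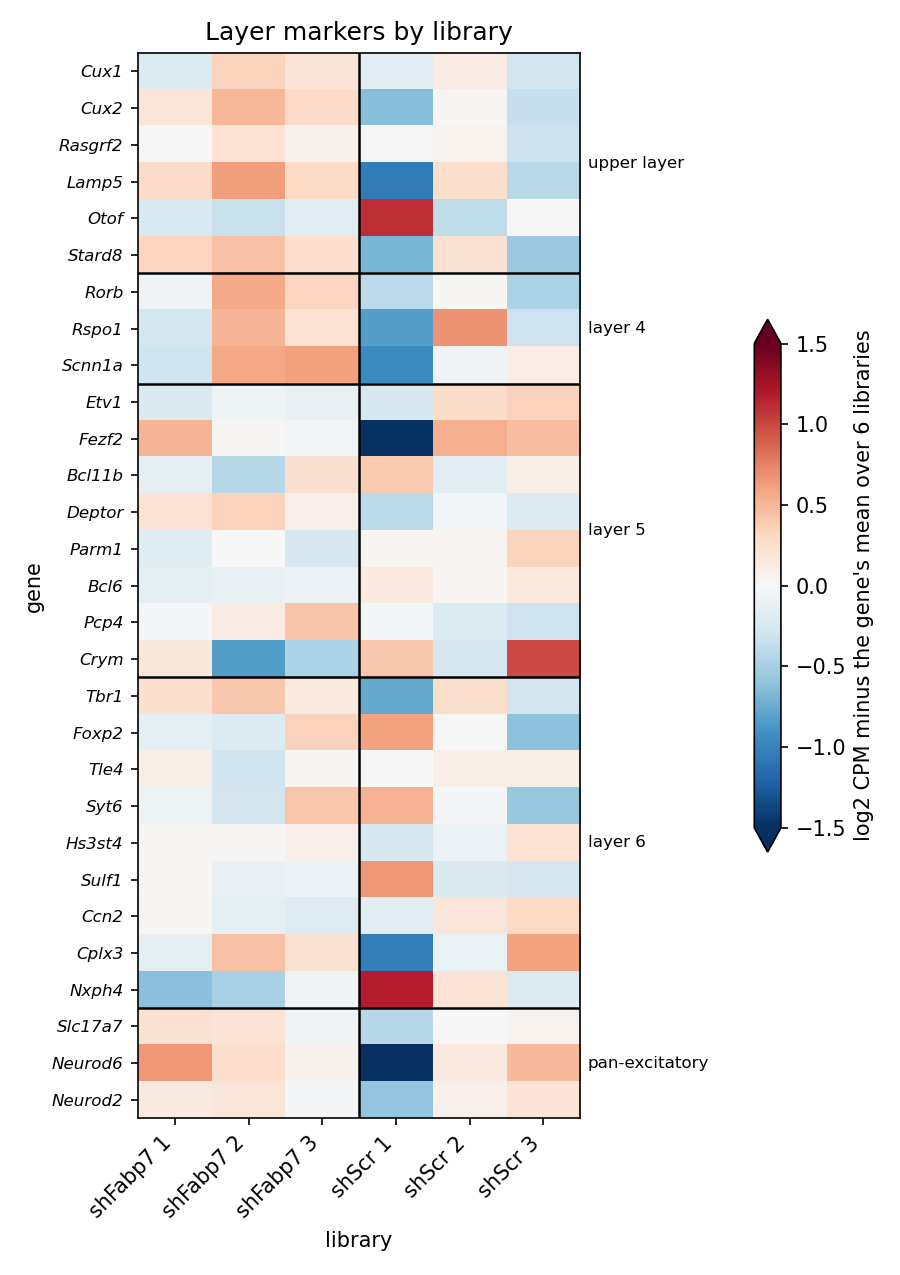
Level of each marker (rows, grouped by layer) in each library (columns, shFabp7 left of shScr) as log2 CPM minus the mean of the gene over 6 libraries (red, higher; blue, lower). ShScr library 1 holds the lowest value of 14 markers and the highest of 6, and shFabp7 library 2 the highest of 8.

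The extremes of the members fell unevenly over the libraries. ShScr library 1 held the lowest value for 14 of the 29 members and the highest for 6, and shScr library 3 the lowest for 7 and the highest for 8. ShFabp7 library 2 held the highest value for 8 members, 5 of them upper-layer markers, and shScr library 2 the lowest for 1 member. The markers lowest in shScr library 1 were all 3 pan-excitatory, 2 of 3 layer 4, 3 of 6 upper-layer, 3 of 8 layer 5 and 3 of 9 layer 6 markers, and those highest there were 4 layer 6, 1 layer 5 and 1 upper-layer marker. Per length of exon the levels spanned a wide range: Slc17a7 averaged 271 CPM per kb in shFabp7 and 229 CPM per kb in shScr, Pcp4 254 and 198, and Lamp5 61.0 and 37.2. At the low end, Scnn1a had 1.501 CPM per kb in shFabp7 and 1.002 in shScr, and Foxp2 1.07 and 1.12.

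Other genes of the same layers, on lists that were chosen with earlier results of these data known, were read beside the members. Of 8 further upper-layer and callosal genes, 5 had values above 0 and the median was 0.24 (0.075 without shScr library 1). None passed in edgeR or DESeq2, and 2 had an unadjusted p under 0.05 in edgeR, where the share of all genes was 16.8%. Of 9 further layer 5 genes, 5 were above 0 (median 0.15), and none passed in edgeR or DESeq2. At an unadjusted p under 0.05 in edgeR there was 1 of these 9, beside the same share of 16.8%.

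Of 8 further layer 6 genes, 7 had values below 0 (median -0.47, and -0.40 without shScr library 1). None passed in edgeR (5 had an unadjusted p under 0.05, where the share of all genes was 16.8%), and 1 passed in DESeq2, which called 4.49% of all genes. That gene was Rprm, a cell cycle inhibitor used as a layer 6 marker, at 42.3, 31.4 and 30.3 CPM in shFabp7 and 64.6, 45.3 and 44.5 CPM in shScr libraries 1 to 3, with a log2 fold change of -0.57 and an adjusted p of 0.0271 in DESeq2 and 0.227 in edgeR. Ntsr1, a neurotensin receptor of layer 6 neurons that project to the thalamus, also had groups that did not overlap, at 6.46, 4.62 and 6.62 CPM in shFabp7 and 10.4, 8.03 and 8.40 CPM in shScr. The Ntsr1 log2 fold change was -0.60 (edgeR adjusted p of 0.162). Sox5, a transcription factor of deep-layer neurons, was the gene above 0, at 38.1, 57.3 and 43.6 CPM in shFabp7 and 29.8, 37.7 and 36.4 CPM in shScr, without overlap (log2 fold change 0.42, edgeR adjusted p of 0.260). Without overlap, 3 of these 8 genes were lower (Rprm, Ntsr1 and Sla, the last at -0.32) and 1 higher in shFabp7. The shares of all genes tested were 11.5% and 11.4%. The 9 layer 6 members had a median of -0.06, and the difference between the lists was not tested. Of 6 further pan-excitatory genes, 4 were above 0 (median 0.29), and DESeq2 called 1 higher, where it called 2.49% of all genes higher. This was Camk2a, a kinase of excitatory synapses, at a log2 fold change of 0.37 (adjusted p of 0.0155 in DESeq2, and 0.128 in edgeR). Rprm, Ntsr1, Sla, Sox5 and Camk2a were named after their values were seen.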

How the data were processed

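The authors deposited unnormalized read counts, 1 value per gene and library, in featureCounts layout per the file headers. Tools named in the submitters' processing notes, without role or order, are STAR 2.5.2b, Trimmomatic 0.36, Subread 1.5.2 and DESeq2, and the build named there is GRCm39. Of 48970 gene IDs also in GENCODE M21 (GRCm38), 44772 (91.4%) had the same position, so positions are read as GRCm38. The sources used here do not give whether counting used strand, so sense and antisense reads of overlapping genes cannot be told apart. The last columns of the files are headed by numbers of unknown meaning that were not used.

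Genes were filtered with filterByExpr, scaled with TMM and tested with edgeR 4.0.16 (quasi-likelihood, robust, group alone, R 4.3.3), with Benjamini-Hochberg adjustment over 17185 genes. DESeq2 1.42.0 and limma 3.58.1 were alternatives. CPM are counts scaled by the TMM library size, and SE is the log2 fold change over the square root of F. Log2 CPM used a prior count of 2. The alternatives were RLE or upper-quartile scaling, omission of the filter, a minimum of 1 CPM in 3 samples, the replicate number as a block, sex, a non-cortical score (mean log2 CPM of the hippocampal, striatal, thalamic and ependymal lists) and left-out libraries. Groups and replicate numbers came from the sample titles, and nothing says that samples are separate animals, so the p-values refer to the spread between samples only, which may be technical. No library was a copy of another (chi-square per degree of freedom of 6.32 to 36.3).

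The members, layer groups and lists were chosen with earlier results of these data known. Values in every library are printed for members past the threshold in edgeR or DESeq2, for the 3 of each group with the lowest p and for the one with the highest CPM; others named with such values were chosen after their values were seen.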

Additional observations from a re-analysis of the deposited data

How the results depend on the processing

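Of the 29 members, 16 kept the sign of their log2 fold change in every setting tried. The number called by edgeR over all genes was 20, and it was 696 in DESeq2, 1617 with no filter, 109 with limma-voom, 7 with sex as a covariate, 2 with the non-cortical score, and 0 to 900 with single libraries left out. The number of members called was 0, and it was 4 in DESeq2, 7 with no filter, and 0 to 3 with single libraries left out. Chosen after seeing the data, DESeq2 without shScr library 1 called 379 genes and 3 members (Cux2, Etv1 and Pcp4), and without shScr libraries 1 and 3 together 120 genes and 0 members. With the replicate number as a block, 629 genes and 3 members (Cux2, Rorb and Deptor) were called. The labels do not say that the numbers pair samples, so the block was not used. The deviations from the group means had correlations of 0.081, 0.154 and 0.057 for same-numbered libraries, and of -0.179 to 0.099 for the others. ShFabp7 libraries 1 and 2 correlated best with their own number and shFabp7 library 3 did not, so this check does not settle whether the numbers pair samples.

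With single libraries left out, the median log2 fold change ranged from 0.32 to 0.59 for upper-layer, from -0.17 to 0.039 for layer 6 and from 0.018 to 0.23 for all members. With the non-cortical score it was 0.065 for upper-layer markers and 0.0023 for all members, and without shScr libraries 1 and 3 together it was 0.13 for upper-layer markers. The cause was not tested.

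Signs turned with the non-cortical score for Cux1 (-0.052), Otof (0.30), Rspo1 (-0.64), Fezf2 (-0.51), Bcl11b (0.30), Tbr1 (-0.10), Foxp2 (0.33), Sulf1 (0.28), Cplx3 (-0.13), Neurod6 (-0.055) and Neurod2 (-0.15). Without shScr libraries 1 and 3 together they turned in edgeR and DESeq2 for Otof (0.15 and 0.15), Rspo1 (-0.49 and -0.49), Fezf2 (-0.37 and -0.37), Bcl11b (0.089 and 0.087), Foxp2 (0.014 and 0.012) and Sulf1 (0.15 and 0.15). DESeq2 without shScr library 1 turned Rspo1 (-0.077), Fezf2 (-0.32), Foxp2 (0.29), Hs3st4 (-0.028), Sulf1 (0.17), Cplx3 (-0.10) and Neurod2 (-0.041). Foxp2 also turned with limma-voom (0.17) and with sex (0.11). With single libraries left out, values that turned ranged over -0.080 to 0.73 for Rspo1, -0.33 to 0.39 for Fezf2, -0.31 to 0.29 for Foxp2, -0.23 to 0.32 for Syt6, -0.030 to 0.20 for Hs3st4, -0.34 to 0.17 for Sulf1, -0.10 to 0.68 for Cplx3 and -0.044 to 0.31 for Neurod2. Members of low level, such as Nxph4 and Scnn1a, carry the larger counting error.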

Other observations

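Markers of inhibitory neurons, the cells that share the layers with the excitatory neurons described above, did not move one way. Of 12 such genes, 3 had log2 fold changes above 0 and the median was -0.19 (-0.04 without shScr library 1). None passed in edgeR, and 4 had an unadjusted p under 0.05 there, where the share of all genes was 16.8%. DESeq2 called 3, 2 higher and 1 lower, where it called 4.49% of all genes, 2.49% of all genes being higher. Pvalb, the calcium-binding protein of fast-spiking interneurons, stood at 63.5, 89.9 and 70.1 CPM in shFabp7 libraries 1 to 3, against 30.9, 56.0 and 45.6 CPM in shScr libraries 1 to 3. The groups did not overlap, and the log2 fold change of 0.75 (DESeq2 adjusted p of 0.00447, edgeR adjusted p of 0.245) was 0.55 without shScr library 1. Npy, a neuropeptide of interneurons, was likewise higher in all 3 shFabp7 libraries, at a log2 fold change of 0.55 (DESeq2 adjusted p of 0.0275). Adarb2, an RNA-editing family member that marks interneurons of one lineage, was lower in all 3, at -0.45 (DESeq2 adjusted p of 0.0484). Gad2, an enzyme of GABA synthesis, stood at 373 CPM in shScr library 1 and between 131 and 194 CPM in the other 5 libraries.

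Of the glial and vascular lists read beside the members, astrocyte markers (8 genes) summed to 4752 to 5225 CPM in shFabp7 and 4546 to 5030 CPM in shScr, whereas their mean log2 CPM was 7.77 to 7.84 in shFabp7 and 7.91 to 8.0003 in shScr, without overlap. Of these 8 genes, 5 had an unadjusted p under 0.05 in edgeR, where the share of all genes was 16.8%, and none passed. Without overlap, 4 were lower and 1 higher in shFabp7, where the shares of all genes tested were 11.5% and 11.4%. Gfap, the intermediate filament gene of astrocytes whose promoter drives both hairpins, was called lower by DESeq2, at a log2 fold change of -0.79 (DESeq2 adjusted p of 1.36e-07, edgeR adjusted p of 0.0597). Microglial markers summed to 391 to 434.5 CPM in shFabp7 and 442.5 to 461 CPM in shScr, without overlap, but on the scale of mean log2 CPM shFabp7 library 3 overlapped with shScr library 1. Of 8 microglial genes, 3 had an unadjusted p under 0.05 in edgeR, where the share of all genes was 16.8%, and none passed. The groups did not overlap for 3 of these 8 genes, all lower in shFabp7, where 11.5% of all genes tested were lower. DESeq2 called 1 lower (C1qa, a complement component, at -0.34, adjusted p of 0.0350), where it called 4.49% of all genes in either direction. Endothelial markers summed to 355 to 365 CPM in shFabp7 and 296.5 to 388 CPM in shScr. Of 8 such genes DESeq2 called 1 higher (Flt1, a receptor for vascular growth factor, at 0.31, adjusted p of 0.0405), where it called 2.49% of all genes higher. Oligodendrocyte markers summed to 4040 to 4829 CPM in shFabp7 and 3683 to 4729 CPM in shScr, with no gene called by edgeR or DESeq2 and 0 of 8 at an unadjusted p under 0.05 in edgeR. Gfap, C1qa and Flt1 were named after their values were seen.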
